A study of Mus musculus with 965 samples.

Results

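The cells described here are the naive-like cells of late embryoid bodies (EBs), the cells that at days 6 and 8 of differentiation still held reads of genes of naive pluripotency. A cell was counted as naive-like when at least 5 raw reads fell in each of 3 or more of 7 marker genes (Zfp42, Dppa3, Esrrb, Tfcp2l1, Klf2, Dppa5a and Tdh). The rule was met by 125 of the 600 cells of the 10 day 6 and day 8 plates (20.8%), out of 965 cells in the whole series. They were set against the other 475 cells of these plates and against all 365 day 3 cells. The cells were thus chosen by their reads of the 7 markers, so the levels of these genes are a description and carry no test.

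Naive pluripotency is the state of the preimplantation epiblast and of mouse embryonic stem cells (ESCs) kept with leukemia inhibitory factor (LIF), an extracellular signal that acts through Stat3. Once LIF is withdrawn, ESCs leave this state, pass through a primed state that resembles the postimplantation epiblast, and then enter the germ layers. The de novo DNA methyltransferases Dnmt3a and Dnmt3b are induced on the way from naive to primed, while Tet1, an enzyme that oxidises methylated cytosine, is abundant in naive cells. Primordial germ cells, which arise from the epiblast, take up many genes of the naive network again, so that both cell types share markers.

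EBs, free-floating aggregates in which ESCs differentiate, were grown without LIF from E14 mouse ESCs of 3 genotypes. 3AKO lacks Dnmt3a (clones 3A2 and 3A38), 3BKO lacks Dnmt3b (clones 3B126 and 3B77), both homozygous, and WT carries neither deletion and is a single line. Cells of each clone were taken at days 3, 6 and 8, except that clone 3A2 had no day 8 plate here. Each clone at each day was 1 pool of EBs and 1 sorted plate of single live cells, other than WT at day 8, which had plates C343 and C344, so that the clones are the only biological replicates. The labels give 3 batches, the first with all 3AKO cells, the second with WT and 3B126 and the third with 3B77. Genotype and batch therefore cannot be told apart, other than between 3B126 and WT.

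Each cell had between 50096 and 3442378 reads. The median depth was 278608 reads in naive-like cells, 248755 in the other late cells and 254791 at day 3. The targeted transcripts were checked at day 3, where Dnmt3a was at 24.1 and 13 CPM (a gene's part of the summed reads of a plate, scaled to a common total) in the 3AKO clones, against 118 to 153 CPM elsewhere, and Dnmt3b at 17.8 and 35.3 CPM in the 3BKO clones, against 239 to 285 CPM elsewhere. In the late plates Dnmt3b reads overlapped between the genotypes. Ddx3y, a Y-linked helicase gene, set 2 libraries apart from others with the same label. In 3B77 it reached 5 reads in 3 of the 40 cells labelled day 8 (plate C378), but in 0 of 79 cells at day 3 and 0 of 71 at day 6. In WT it did so in 0 of 68 cells of plate C344 at day 8, against 4 of 74 at day 3 (C315), 6 of 67 at day 6 (C334) and 1 of 21 on the other day 8 plate (C343), few cells in each case. Eif2s3y, another Y-linked gene, lay the same way in more cells. In 3B77 it reached 5 reads in 9 of 40 cells of C378 and in 0 at days 3 and 6. In WT it did so in 0 cells of C344, against 7 of 74 on C315 and 2 of 21 on C343. On C334 it was in 3 of 4 naive-like and 27 of 63 other cells. Plate C378 held no naive-like cell, and plate C344 held 25 of the 125, so the day 8 shares, the counts of calls and the shares of germ cell genes are also given without C344.

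Few late cells lay near the limit of the rule. Of the 600 late cells, 411 had none of the 7 markers at 5 reads, 55 had 1 and 9 had 2. Among the cells that met the rule, 9 had 3 markers, 19 had 4, 28 had 5, 44 had 6 and 25 had all 7, with a median of 6. Day 3 cells had no such gap, with 119 cells at 1 marker, 75 at 2, 60 at 3 and 46 at 4, and only 2 cells with all 7. The 9 cells just outside the rule had Dppa5a in 9 cases and Zfp42 in 7, whereas the 9 cells just inside had Dppa5a in 9, Zfp42 in 8 and Tdh in 5.

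**Figure D1:**
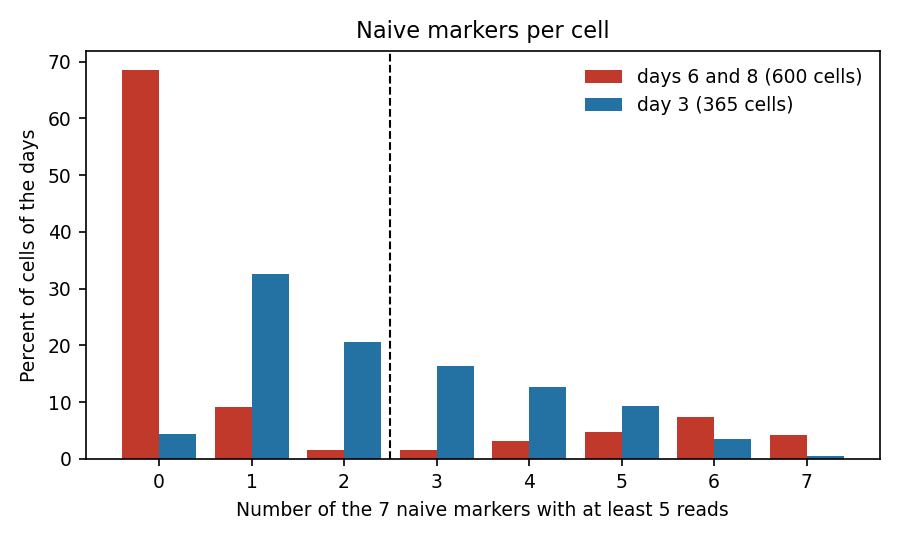
Percent of cells by the number of the 7 naive markers with at least 5 reads, for the 600 cells of days 6 and 8 (red) and the 365 cells of day 3 (blue). The dashed line marks the rule of 3 or more markers; few late cells (9) had 2 markers, while 75 day 3 cells did.

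The markers differed in how widely they were shared among the 125 naive-like cells. Dppa5a, which encodes an RNA-binding protein of early embryos (chromosome 9, 78367052 to 78368177, minus strand, GRCm38), reached 5 reads in all 125 cells. Zfp42, also known as Rex1, a zinc finger gene long used to mark naive ESCs (chromosome 8, 43295063 to 43306980, minus strand), did so in 98.4%, and Tdh, the threonine dehydrogenase that mouse ESCs depend on (chromosome 14, 63492347 to 63509092, minus strand), in 92.8%. The transcription factor genes followed, with Tfcp2l1 (chromosome 1, 118627945 to 118685168, plus strand) in 80% of the cells, Klf2 (chromosome 8, 72319033 to 72321656, plus strand) in 79.2% and Esrrb (chromosome 12, 86361117 to 86521628, plus strand) in 62.4%. Dppa3, also known as Stella, a maternal and germline factor that protects DNA methylation marks in the zygote (chromosome 6, 122626410 to 122630272, plus strand), was the least shared, in 32.8%.

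Day 3 cells that met the same rule (155 of 365, 42.5%) were described by the same shares, with cells pooled over plates and no test. Tfcp2l1 reached 5 reads in 80% of the late naive-like cells and in 25.2% of these day 3 cells, and Dppa3 in 32.8% and 3.23%. For Klf2 the shares were 79.2% and 51.6%, whereas Dppa5a stood at 100% in both.

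Naive-like cells were spread unevenly over the clones. Clone 3A2 at day 6 had 60 among 80 cells, 75.0% (95% exact binomial interval 64.1 to 84%), and so supplied 48% of all naive-like cells. Such intervals cover counting error only, since reads copied by PCR are not independent molecules, and cells of a plate share a pool of EBs. The other day 6 plates had 1 of 72 cells in 3A38 (1.39%, 0.0352 to 7.50%), 6 of 58 in 3B126 (10.3%, 3.89 to 21.2%), 5 of 71 in 3B77 (7.04%, 2.33 to 15.7%) and 4 of 67 in WT (5.97%, 1.65 to 14.6%). The interval of 3A2 lay above those of all 4 other clones, whose intervals overlapped.

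At day 8 the shares were 11.1% in 3A38 (8 of 72 cells, 4.92 to 20.7%), 31.4% in 3B126 (16 of 51, 19.1 to 45.9%) and 36.8% on WT plate C344 (25 of 68, 25.4 to 49.3%). WT plate C343 had 0 of 21 cells, an upper limit of 14.3%, and the library labelled 3B77 day 8 had 0 of 40, an upper limit of 7.50% (3 cells of the total in each case). The upper limit of C343 thus lay below the interval of C344, the WT plate of the same day, and the 2 plates joined gave 28.1% (19.1 to 38.6%).

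With so few clones, the exact test of the share by genotype could not give a p under 0.05 at either day. The differences are therefore a description, and no conclusion on genotype is drawn. Clones of 3AKO averaged 38.2% at day 6 and the other 3 clones 7.79%, a difference of 30.4 points (exact two-sided permutation test over clones, p = 0.4, adjusted p = 0.8 over 4 contrasts, smallest possible p 0.1). This difference came from 3A2, and without that clone it was -6.40 points. Clones of 3BKO averaged 8.69% at day 6, against 27.5% in the other clones, a difference of -18.8 points (exact permutation p = 1, adjusted p = 1). Without 3A2 this difference was 5.01 points.

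At day 8, 3BKO clones averaged 15.7% and the other clones 19.6%, a difference of -3.91 points (exact permutation p = 1, smallest possible p 0.333). Without plate C344 and the library labelled 3B77 day 8 that difference was 25.8 points, with 31.4% in 3B126 alone, and it was 10.1 points without plate C344 only. Leaving out the WT clone gave 4.58 points, and leaving out 3B77 gave 11.8 points. Within batch 2, where batch and genotype can be told apart, 3B126 had 10.3% and WT 5.97% at day 6, and 3B126 had 31.4% and WT 28.1% at day 8, with overlapping intervals at both days. The day 8 value of WT joins C343 and C344, and without C344 the upper limit of WT (14.3%, on C343) lay below the interval of 3B126. Over the 4 clones with both days, the share was 17.6% at day 8 against 6.19% at day 6, 11.5 points higher (exact sign permutation p = 0.25, adjusted p = 0.8, smallest possible p 0.125). Without plate C344 the share was 10.6% at day 8 against 6.19% at day 6, 4.43 points higher (exact sign permutation p = 0.625).

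**Figure D2:**
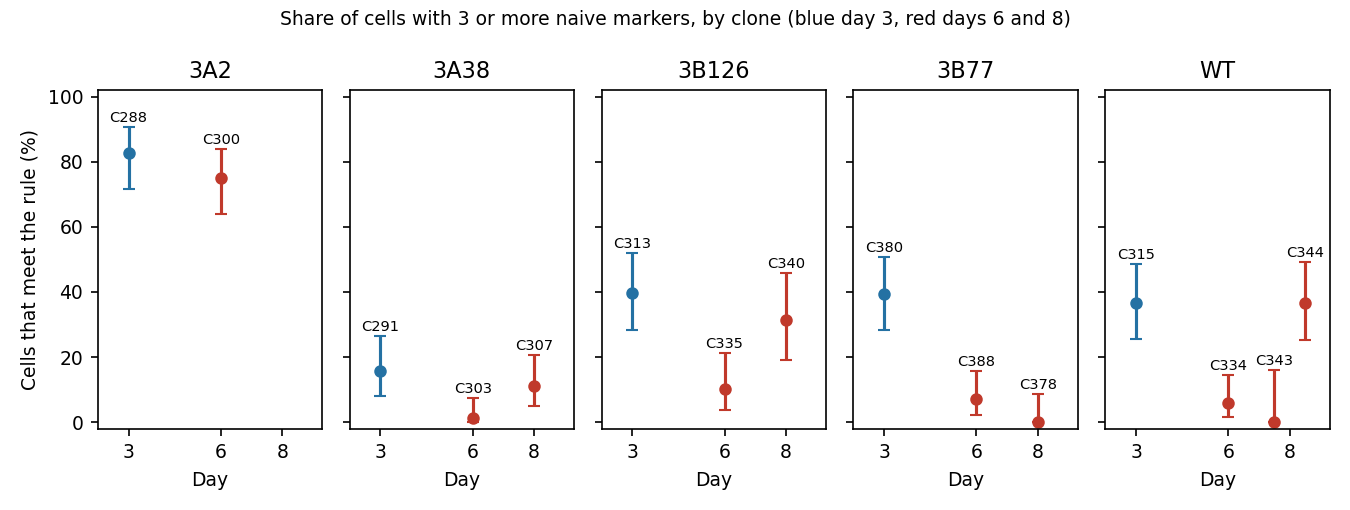
Share of cells that met the rule (percent, points, with 95% exact binomial intervals) by day for each clone, day 3 in blue and days 6 and 8 in red, with plate names; the WT day 8 plates are drawn to either side of day 8. Clone 3A2 stands at 82.6% at day 3 and 75.0% at day 6, above every other plate.

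The clones had already differed at day 3. The rule was met by 82.6% of day 3 cells in 3A2, 15.7% in 3A38, 39.7% in 3B126, 39.2% in 3B77 and 36.5% in WT. Clone 3A2 was highest and 3A38 lowest at days 3 and 6 alike. In 3A2 the share was 75.0% at day 6 and 82.6% at day 3, with overlapping intervals, whereas in 3A38, 3B126, 3B77 and WT the day 6 share was below the day 3 share and the intervals did not overlap. At day 8 only 3A38, 3B126 and WT plate C344 had intervals that overlapped those of their own day 3 plates.

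The rule counts raw reads, so depth could decide which cells meet it. With every cell thinned to 50000 reads and 1 read asked per marker, 121 of the 125 cells still met the rule. The shares were then 75.0% in 3A2, 8.33% in 3A38 at day 8, 31.4% in 3B126 at day 8, 36.8% on C344 and 8.96% in WT at day 6.

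For levels, reads were summed over the naive-like cells and over the other cells of each of the 6 plates that had at least 5 of each (C300 of 3A2, C335 of 3B126 and C388 of 3B77 at day 6, and C307 of 3A38, C340 of 3B126 and C344 of WT at day 8). These plates hold 120 of the 125 cells and come from 5 clones, since 3B126 gave 2 of them. Zfp42 was between 316 and 647 CPM in the naive-like sums (median 367), against 0 to 6.43 CPM in the other cells (median 0.822), and 22.4 to 293 CPM in the day 3 sums of all cells. Tfcp2l1 was between 42.4 and 168 CPM (median 116) in naive-like cells, against 0 to 0.218 CPM in the other cells and 1.88 to 25.1 CPM at day 3. In the day 3 cells that met the rule Tfcp2l1 was between 6.93 and 35.5 CPM. The rule chose the cells by these genes, so their distance from the other cells was set in part by the rule and is a description. Dppa3 was the most uneven of the 7, at 85.7 CPM in C300, 6.25 in C307, 0 in C335, 23.3 in C340, 62.9 in C344 and 17.3 in C388, and had no read in the other cells of the 6 plates.

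Most, though not all, of the 18 naive genes that the rule did not use had higher sums in the naive-like cells, and since the cells were themselves divided by naive genes, these levels are a description. Fbxo15, an F-box protein gene of ESCs, was between 221 and 532 CPM (median 352), against 0.653 to 15.3 CPM in the other cells of the same plates. Morc1, which encodes a repressor of transposons in the male germline, was between 19.2 and 160 CPM, and its reads in the other cells were limited to 1 read in C300. Tcl1, a co-activator of Akt, was at 14 CPM in C300, 33.1 in C307, 0.941 in C335, 32.9 in C340, 31.3 in C344 and 14.8 in C388 and had no read in the other cells of any of the 6 plates.

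Further transcription factor genes of the naive network had reads in all 6 naive-like sums. Nr5a2, a nuclear receptor gene, was between 10.7 and 33.8 CPM in the naive-like sums, against 0 to 4.23 CPM in the other cells. Prdm14, a repressor of de novo methylation and of the primed programme, was between 4.0 and 65.3 CPM, against 0 to 3.27 CPM. Klf5 was between 12.7 and 101 CPM, against 0.218 to 39.3 CPM, where the highest value of the other cells (C307) overlapped the range. Klf4 was the weakest of these factors, between 0.941 CPM in C335 and 18.4 CPM in C307, against 0 to 7.15 CPM.

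The sums of other genes of this list overlapped between the classes or had almost no reads. Eras, a Ras family gene of ESCs, was between 0 and 9.86 CPM in the naive-like sums, against 0 to 38.4 CPM in the other cells, and Gbx2, a homeobox gene, between 0 and 8.09 CPM, against 0.128 to 8.34 CPM. Tbx3, a T-box factor gene, was between 0.578 and 38.8 CPM, against 0.0678 to 12.3 CPM, and Lifr, a subunit of the LIF receptor, between 14.7 and 242 CPM, against 15.8 to 108 CPM. Pramel6 had no read in either, and Socs3, a target of Stat3, 1 read in the naive-like sums and 19 in the other cells.

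**Figure D3:**
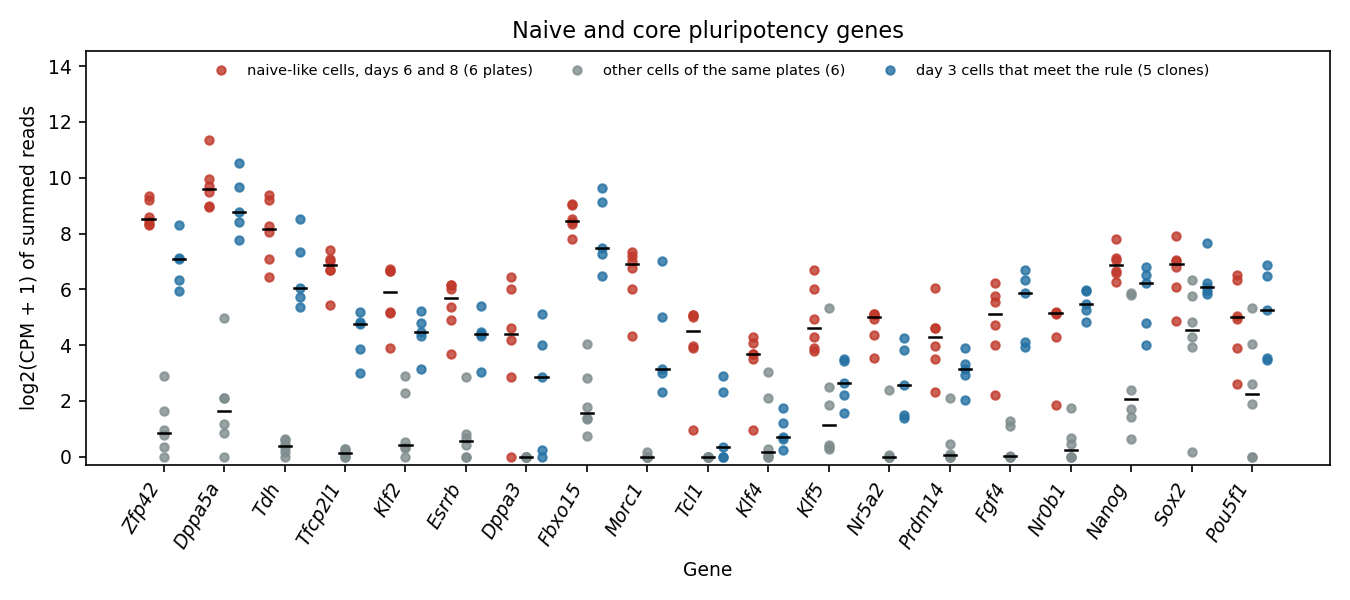
Levels of naive and core pluripotency genes as log2(CPM + 1) of summed reads, for naive-like cells (red, 6 plates), the other cells of the same plates (grey, 6) and day 3 cells that met the rule (blue, 5 clones); each point is 1 sum and the bar is the median. The first 7 genes from the left chose the cells. Tfcp2l1 and Klf4 show the naive-like sums above day 3, apart from Klf4 in C335, and Fgf4 and Nr0b1 do not.

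In the model across all genes (edgeR quasi-likelihood with the plate as a block, 10843 genes other than the markers), 181 genes (1.67%) were higher and 99 (0.913%) lower in naive-like cells at an adjusted p under 0.05. The naive-like and other cells of a plate were divided by marker reads of these same cells, so these counts describe the division and nothing is read from them, and no p-value is given for a single gene. Over the 6 plates, 153 genes (1.41%) lay above and 204 (1.88%) below the other cells with no overlap of the sums. Of the 18 other naive genes, 14 passed the low-count filter and 8 of these were among the higher calls, beside the 1.67% of all genes. Genes without reads in the other cells passed this filter through the naive-like sums alone, so nothing is read from this count either. Fbxo15 was higher by 7.39 ± 0.66 (log2 fold change ± SE), Ooep, a maternal effect gene of the egg, by 5.74 ± 0.57, and Jam2, a cell adhesion gene, by 2.67 ± 0.46. The counts rested on single plates, with 79 higher and 26 lower without C344, 74 and 23 without C388, 96 and 39 without C300, and 129 and 52 without C335.

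The core pluripotency genes, active in naive and primed cells alike, were detected in 44% (Lin28a) to 92.8% (L1td1) of the naive-like cells. For Lin28a, an RNA-binding protein gene, the share in the other late cells was nearly as high, 41.5%, and its sums overlapped (14.8 to 52.3 CPM, against 7.61 to 119 CPM). Nanog reached 5 reads in 85.6% of the naive-like cells, against 21.9% of other late cells and 57.8% of day 3 cells, and Pou5f1 in 64%, against 15.4% and 67.9%. The other late cells differed widely between plates. Nanog was in 69.2% of them on C335 and 65.2% on C388, but in 1.56% on C307 and 0% on C344. Pou5f1 was in 46.2% of them on C335 and 51.5% on C388, but in 0% on C307 and C344. Nanog was between 75.3 and 221 CPM in the naive-like sums and between 0.556 and 57.8 CPM in the other cells, with no overlap. Pou5f1 was between 5.04 CPM in C307 and 89.8 CPM in C388, against 0 to 39.2 CPM, and overlapped. All 12 core genes were tested and 4 were called higher (Utf1, Dppa4, Dppa2 and Gdf3), where 1.67% of all genes were, and nothing is read from this count. Utf1, a chromatin factor gene, was between 10.4 and 56.7 CPM, against 0 to 2.23 CPM in the other cells and 34.6 to 199.6 CPM at day 3.

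The genes with the largest differences included several with no place in the lists. Spp1, which encodes the secreted phosphoprotein osteopontin (chromosome 5, 104435118 to 104441050, plus strand), was at 515 CPM in C300, 442 in C307, 2033 in C335, 441 in C340, 385 in C344 and 1037 in C388 in naive-like cells, against 0 to 7.19 CPM in the other cells. At day 3 it was between 2.19 and 151 CPM, below every naive-like sum. Dpp4, a dipeptidyl peptidase of the cell surface, was between 41.4 and 302 CPM, against 0 to 1.28 CPM in the other cells and 0.221 to 23.4 CPM at day 3. These ranges are of the 6 plates, and on WT plate C334, which had 4 naive-like cells, Dpp4 was at 12.8 CPM in those and 49.3 CPM in the other cells. Spic, an Ets family transcription factor gene, was between 16.5 and 54.8 CPM, against 3 reads in all the other cells of the 6 plates, and at most 3.13 CPM at day 3. Calcoco2, an autophagy receptor gene, was between 6.05 and 111 CPM and had no read in the other cells of these plates. Pglyrp1, a peptidoglycan recognition protein gene, was between 3.53 and 67.4 CPM, against 2 reads in those cells and at most 0.464 CPM at day 3.

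The remaining named genes on the higher side were Nlrp12, AU018091, Lncenc1, Triml1, Zfp296 and Tdrd12. Lncenc1, a long noncoding RNA of naive ESCs, was between 2.12 CPM in C335 and 125 CPM in C307, against at most 0.177 CPM in the other cells. Tdrd12, a Tudor domain gene of the piRNA pathway, was between 5.45 and 52.8 CPM, against at most 2.85 CPM. Of the genes called higher, 176 of 181 were higher in all 6 plates.

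The 12 named genes on the lower side had few or no reads in the naive-like cells of the 6 plates, other than Asb4 and Olfm1 in C300. Dkk1, a secreted inhibitor of Wnt signalling, had no read in the naive-like cells of any of the 6 plates, against 3.97 to 114 CPM in the other cells. Kif26b, a kinesin family gene, was likewise without a read, against 1.63 to 143 CPM. Rmst, a long noncoding RNA of neural progenitors, had reads in naive-like cells of C340 only (0.578 CPM), against 3.53 to 146 CPM. Gpr137c, Hspa12a, Fam149a, Dclk1, Cnr1, Asb4, Olfm1, Vopp1 and Cdk14 completed the list, each with a naive-like median of at most 0.193 CPM. Asb4 had 168 reads in the 6 naive-like sums, mostly in C300 (6.30 CPM), and Olfm1, which encodes a secreted glycoprotein of the nervous system, had 186 (7.15 CPM in C300). On plate C303, outside the 6, Olfm1 was at 25.8 CPM in the single naive-like cell and 17.1 CPM in the other cells.

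Markers of mesenchyme and blood were scarce in naive-like cells. At least 3 mesenchyme genes reached 5 reads in 1 of 125 naive-like cells (0.800%) and in 20.2% of the other late cells, and at least 3 blood genes in 0 of 125 and 8.0%. Prrx1, a homeobox gene of mesenchyme, was at most 1.59 CPM in the naive-like sums, against 1.96 to 47.8 CPM. At least 3 of 15 primitive endoderm genes were detected in 5.60% of the naive-like cells, against 25.3% of the other late cells. Apoe, a gene of that list, lay the other way, in 96.8% of the naive-like cells, against 52.6%. Lamb1, also of that list, was in 27.2%, against 30.7%. At least 3 of 12 primitive streak genes were detected in 2 naive-like cells, against 6.53% of the other late cells. Single streak genes did not all lie that way, with Eomes in 10.4% of the naive-like cells, against 6.32%, and T in 7.20%, against 6.32%. For 11 neuron genes the shares were 14.4% and 27.6%, and Stmn2, a microtubule regulator gene of neurons, was found in 72.8% of the naive-like cells, against 58.7%. Of 12 neural progenitor genes, at least 3 were detected in 9 naive-like cells (7.20%), against 30.9% of the other late cells. Of these 9 cells 8 were among the 16 of plate C340. The naive-like sum of C340 had 2007 CPM of Crabp1, a retinoic acid binding protein gene, 296 CPM of Fabp7, a fatty acid binding protein gene of neural progenitors, and 66.5 CPM of Pax6, against 10863 CPM of Crabp1 in the other cells of that plate. In the naive-like sums of the 5 remaining plates Crabp1 was at most 78.2 CPM and Fabp7 at most 3.23 CPM. Whether wells of C340 held more than 1 cell was not tested, and no doublet caller was run on these sorted cells.

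Genes of the germ cell programme were detected in a part of the naive-like cells. Prdm1 (chromosome 10, 44437177 to 44528501, minus strand) and Tfap2c (chromosome 2, 172549593 to 172558622, plus strand) encode transcription factors that specify primordial germ cells, and Nanos3 (chromosome 8, 84173731 to 84185217, minus strand) an RNA-binding protein that keeps these cells alive. At least 1 of the 3 reached 5 reads in 66 of 125 naive-like cells (52.8%, 43.7 to 61.8%), in 25 of 475 other late cells (5.26%, 3.43 to 7.67%) and in 29 of the 155 day 3 cells that met the rule (18.7%, 12.9 to 25.8%). At least 2 of the 3 did so in 28 naive-like cells (22.4%, 15.4 to 30.7%), in 0 of 475 other late cells (an upper limit of 0.632%) and in 2 of 155 day 3 cells that met the rule (1.29%). These 3 genes were picked with the values known, so the shares are a description.

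Cells with at least 2 of these 3 genes occurred in clones of both knockouts and, in WT, on plate C344 alone. They numbered 14 of 60 on C300, 1 of 1 on C303 and 4 of 8 on C307 in 3AKO, 2 of 6 on C335, 3 of 16 on C340 and 0 of 5 on C388 in 3BKO, and 4 of 25 on C344 and 0 of 4 on C334 in WT. Without C344 they were 24 of 100. With all cells thinned to 50000 reads and 1 read asked per gene, the share was 28.0% in naive-like cells.

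Prdm1 was at 12.1 CPM in C300, 16.7 in C307, 12.2 in C335, 15.8 in C340, 22 in C344 and 33.7 in C388 in naive-like cells, against 0 to 5.23 CPM in the other cells, with no overlap. Few cells gave some of these sums. Prdm1 reached 5 reads in 1 of 6 naive-like cells of C335 and 1 of 5 of C388, against 1 of 52 and 2 of 66 other cells. On the plates outside the 6 it did so in 0 of 4 naive-like cells (C334) and 0 of 1 (C303). Day 3 cells that met the rule had 37.3 CPM of Prdm1 in clone 3A2 and 0 to 2.74 CPM in the other 4 clones. Nanos3 was between 1.02 CPM in C388 and 39.3 CPM in C340, against 0.305 to 1.53 CPM in the other cells and 0 to 3.77 CPM in the day 3 cells that met the rule. Tfap2c was between 3.57 and 60.7 CPM, against 0 to 27.4 CPM in the other cells, where the highest value was again that of C307.

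Of the 12 germ cell genes, 6 were tested against the other cells and 1, Nanos3, was called higher (log2 fold change 3.88 ± 0.78), where 1.67% of all genes were, and nothing is read from this count. Dmrt1, a transcription factor gene of germ cells and gonad, was between 0.510 and 87 CPM in naive-like cells and without a read in the other cells of the 6 plates. Dazl, an RNA-binding protein gene of later germ cells, was at 23.8 CPM in C300, 69 in C307, 0 in C335, 75.7 in C340, 18.4 in C344 and 66.3 in C388, against at most 0.871 CPM in the other cells. On C388 it reached 5 reads in 1 of 5 naive-like cells. At day 3 Dazl was between 0.520 and 81.1 CPM in the cells that met the rule. Stk31, another germline gene, was between 0 and 332 CPM, against 0 to 8.92 CPM. Kit, the receptor of stem cell factor, was between 0.807 CPM in C307 and 110 CPM in C335, and overlapped the other cells (1.77 to 34.6 CPM).

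**Figure D4:**
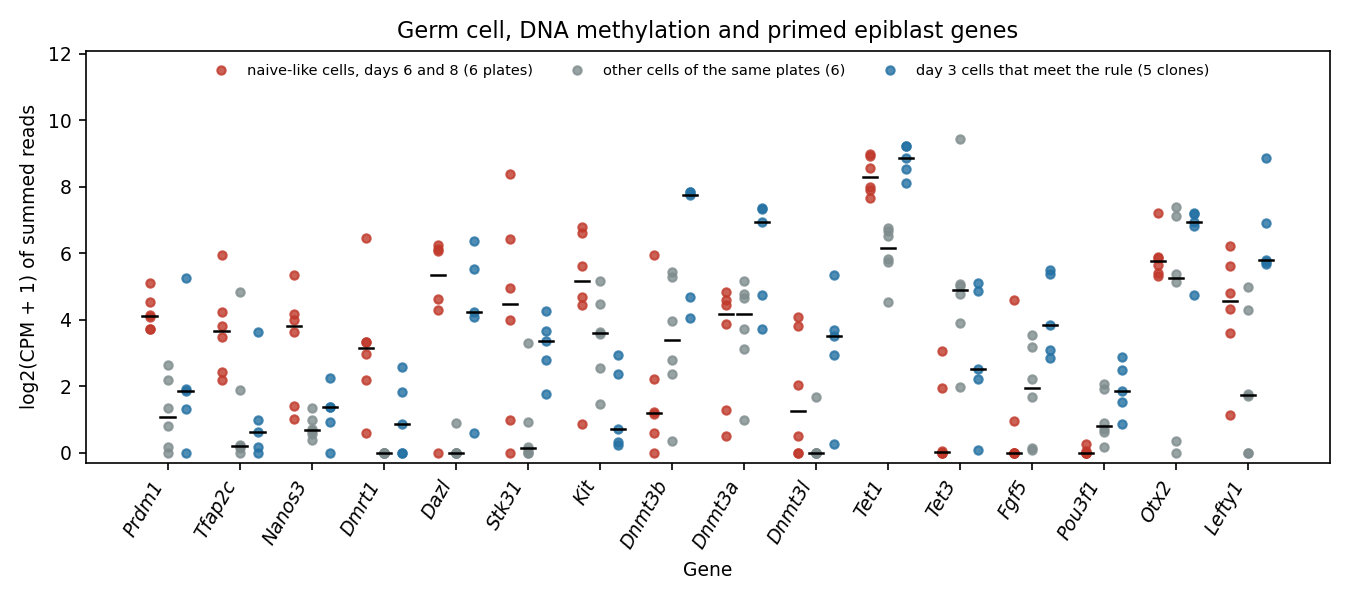
Levels of germ cell, DNA methylation and primed epiblast genes as log2(CPM + 1) of summed reads, for naive-like cells (red, 6 plates), the other cells of the same plates (grey, 6) and day 3 cells that met the rule (blue, 5 clones); each point is 1 sum and the bar is the median. Prdm1 sums are above those of the other cells in all 6 plates, with 1 naive-like cell at 5 or more reads in each of C335 and C388. Pou3f1 is at or near 0 in naive-like cells, at most 0.193 CPM.

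Among the DNA methylation genes, Tet1 alone was called higher (1 of 10 tested, beside 1.67% of all genes, with nothing read from the count; log2 fold change 2.63 ± 0.30). It was between 199 and 507 CPM in naive-like cells, against 22 to 106 CPM in the other cells, and between 278 and 597 CPM in the day 3 cells that met the rule. Tet3, its paralogue, was at 0 CPM in C307, C335 and C388, 0.0387 in C300, 2.89 in C340 and 7.32 in C344, against 2.93 to 691 CPM in the other cells. The ranges of Tet3 overlapped, though within each of the 6 plates it was lower in the naive-like cells. Tet3 reached 5 reads in 3.2% of the naive-like cells, against 41.3% of the other late cells. The single naive-like cell of C303, outside the 6, had 96.1 CPM of Tet3. Dnmt1 and Uhrf1, which keep methylation through replication, were at 26 to 101 CPM and 41.6 to 248 CPM, against 31.3 to 148 CPM and 70.5 to 136 CPM in the other cells, and overlapped.

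Dnmt3b (chromosome 2, 153649450 to 153687730, plus strand) was low in naive-like cells of every plate but C300. In clones with an intact gene it was at 61 CPM in C300 and 3.63 CPM in C307 (3AKO). In WT it was at 1.26 CPM in C344, the plate set apart by its Y-linked reads, and 0 in the 4 cells of C334. The day 3 cells that met the rule in the same clones had 229 CPM in 3A2, 216 CPM in 3A38 and 227 CPM in WT. In the 3BKO clones, where reads of the disrupted gene remain, the values were 0 in C335, 1.35 in C340 and 0.510 in C388, against 24.6 and 15.6 CPM at day 3. The other cells of the late plates overlapped with the naive-like cells (0.278 to 42.7 CPM). Dnmt3a had 13.8 to 27.5 CPM in naive-like cells of the 4 plates of 3BKO and WT, against 12.2 to 34.7 CPM in other cells and 121 to 164 CPM in day 3 cells that met the rule. Dnmt3l, a cofactor of both enzymes, was between 0 and 15.9 CPM, against 0 to 2.18 CPM in the other cells.

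Fgf5 and Pou3f1, genes of the primed epiblast, had few reads in naive-like cells. Of Fgf5, Otx2 and Pou3f1, at least 2 reached 5 reads in 0 of 125 naive-like cells, with an upper limit of 2.40%, in 4.84% of the other late cells, and in 51 of the 155 day 3 cells that met the rule (32.9%, 25.6 to 40.9%). Fgf5, the growth factor that marks the primed state, was at 0.928 CPM in C300, 23.1 in C340 and 0 in the other 4 plates, against 6.19 to 43.8 CPM in the day 3 cells that met the rule. Otx2, a homeobox gene of the same list, was at 38.5 to 146 CPM, and overlapped the other cells (0 to 167 CPM) and the day 3 cells that met the rule (25.7 to 146 CPM). These 3 genes were picked with the values known. Lefty2, a Nodal inhibitor gene of the same list, was detected in 77 of 125 naive-like cells, 61.6%, against 8.63% of the other late cells, and Zic2, a zinc finger gene, in 57, 45.6%, against 40.8%. Otx2 was detected in 39.2%, against 23.8%, Lefty1 in 24.8%, against 4.63%, and Nodal in 16%, against 6.32%. Car4 and Pim2 of this list lay the other way, in 1.6% and 4% of the naive-like cells, against 16.8% and 16.4%. None of the 7 primed genes tested against the other cells was called.

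Against all day 3 cells of the same clones, no gene was called in either direction (0.0% of 13399 genes tested, edgeR), with 1218 genes at an unadjusted p under 0.05 and 243 higher and 408 lower by DESeq2. Against the day 3 cells that met the rule, again none was called (0.0% of 10211 genes), with 682 genes at an unadjusted p under 0.05. Dnmt3b had a log2 fold change of -5.35 against all day 3 cells (edgeR adjusted p = 0.12), Dnmt3a of -3.29 (adjusted p = 0.12), Spp1 of 5.02 (adjusted p = 0.15), Spic of 6.72 (adjusted p = 0.15) and Tfap2c of 5.55 (adjusted p = 0.21), none past the threshold. Sums without overlap were found for 35 genes above (0.261%) and 214 below (1.6%) all day 3 cells, and for 27 genes above (0.264%) and 62 below (0.607%) the day 3 cells that met the rule, Spp1, Dpp4, Spic and Pglyrp1 among those above in both. The 11 primed genes tested had a median log2 fold change of -2.51 against all day 3 cells, with 0 of 11 above 0, beside a median of -0.27 over all genes tested. The 11 germ cell genes tested had a median of 2.02, with 9 of 11 above 0, and the 13 glycolysis and hypoxia genes a median of 0.98, with 12 of 13 above 0. Only genes that passed the filter enter these medians, so they are a description. By median CPM per cell, Slc2a1, Aldoa, Tpi1, Gapdh, Pgk1, Pgam1, Eno1, Ldha and Bnip3 were above day 3 in the other late cells too. Of these, Tpi1, Gapdh, Pgk1, Pgam1, Eno1 and Ldha were higher in the other late cells than in the naive-like cells. The median CPM per cell of Ldha was 628 in naive-like, 1249 in other late and 257 in day 3 cells. For Aldoa it was 855, 756 and 349, and for Pfkp 64.1, 0 and 0.

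Naive-like cells of the 2 knockout genotypes were then compared with each other, which the rule did not use. No gene was called between the 3BKO plates (C335, C388 and C340) and the 3AKO plates (C300 and C307), 0.0% of 10192 genes in each direction by edgeR, with 427 genes at an unadjusted p under 0.05 and 21 higher and 56 lower by DESeq2. The 15 other naive genes tested had a median log2 fold change of 0.07, beside 0.13 over all genes tested. The 5 neural progenitor genes tested had a median of 5.15, all 5 above 0, which includes the reads of C340 described above. The genotypes also differ in batch, which cannot be told apart here, and the comparison rests on 3 sums of 3BKO, 2 of them (C335 and C340) from clone 3B126, and 2 of 3AKO, so that each genotype has 2 clones.

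Naive-like cells had a higher share of mitochondrial reads than the other cells of their plate. The median share was 26.6% and 25.7% in naive-like and other cells of C300, 25.9% and 14.9% in C307, 34.2% and 29% in C335, 22% and 15.0% in C340, 17.5% and 17.1% in C344 and 23.4% and 11.7% in C388. It was thus higher in 6 of 6 plates, by 6.02 ± 4.84 points (SD, n = 6; exact sign permutation p = 0.03125, the smallest this design allows, adjusted p = 0.0938 over 3 measures), a difference that did not pass the correction. The 6 plates hold 5 clones, with 3B126 in 2 of them. In C300 and C344 it was under 1 point. The list of mitochondrially encoded genes had 7 tested, none called, and all 7 above 0, with a median log2 fold change of 0.44.

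**Figure D5:**
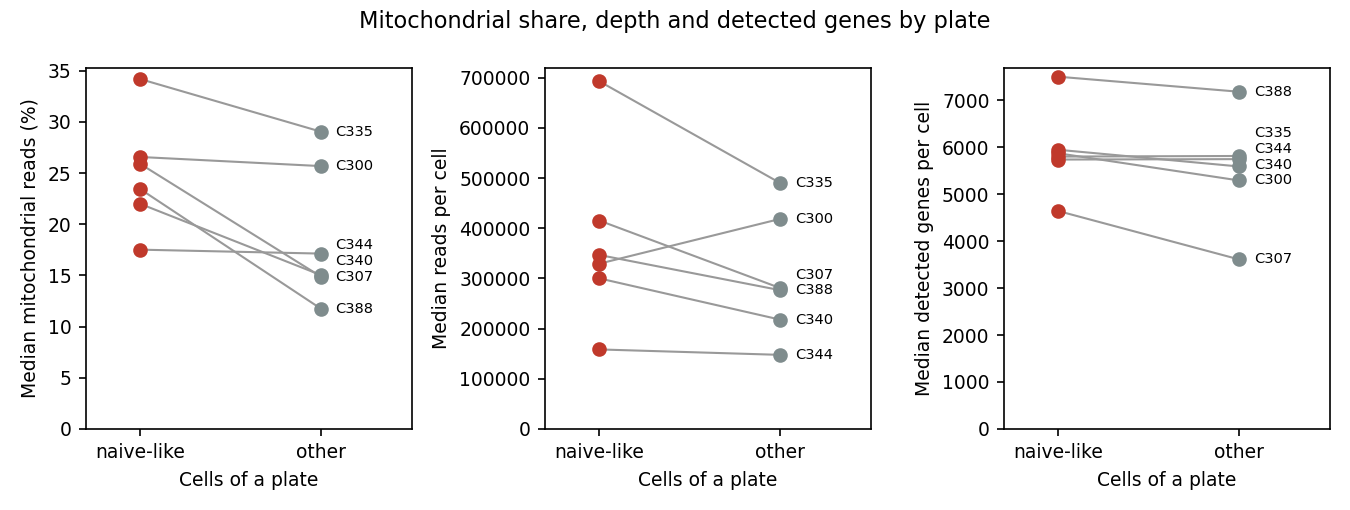
Median mitochondrial share (percent), reads per cell and detected genes per cell in naive-like cells (red) and other cells (grey) of each of the 6 plates, joined by a line. The mitochondrial share is higher in naive-like cells of all 6 plates, by 6.02 points on average.

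Depth and the number of detected genes did not differ beyond the spread between plates. Naive-like cells had 68597 ± 100860 more median reads (SD, n = 6 plates, higher in 5 of 6, exact sign permutation p = 0.1875) and 377.8 ± 394 more detected genes (higher in 4 of 6, p = 0.125 by the same exact test). With all cells thinned to 50000 reads the difference in detected genes was -21.6 ± 320 (SD, n = 6).

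None of 12 S phase and 12 mitotic genes was called against the other cells, with list medians of 0.21 and 0.25 on the log2 scale beside -0.21 over all genes. Top2a, the DNA topoisomerase of dividing cells, was between 467 and 1041 CPM in naive-like cells and between 286 and 827 CPM in the other cells. Of 22 imprinted genes 14 were tested and 1 was called lower, where 0.913% of all genes were, and nothing is read from this count. This was Peg3, a paternally expressed zinc finger gene, at 17.7 to 232 CPM (median 125) in the naive-like sums, against 215 to 1053 CPM (median 624) in the other cells, and lower in each of the 6 plates. Day 3 cells had 99.0 to 215 CPM of Peg3.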

How the data were processed

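Single cells of EBs were profiled by Smart-seq2, a full-length method without molecular identifiers. The authors deposited raw read counts per gene and cell (36849 genes, 965 cells), made per the labels with FastQC 0.11.2, Trim Galore 0.5.0, STAR 2.7.1a and featureCounts 1.6.1 on mm10 (GRCm38) with GENCODE annotation, without multi-mapped reads. Whether the counting used strand is not stated, so overlapping and antisense genes cannot be told apart. The authors kept cells with enough assigned reads and detected genes and a limited mitochondrial share, and cells here had at least 50096 reads. Pools of EBs were dissociated and sorted, and 1 plate is 1 pool.

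Groups followed the labels for clone, stage and batch. Some day 8 titles of plates C340 and C343 end in a suffix with NPM, whose meaning the labels do not give. Those cells were kept in their labelled group. Counts were summed per plate and class, for plates with at least 5 cells of each class, and compared with edgeR 4.0.16 in R 4.3.3 (TMM scaling, low-count filter, robust quasi-likelihood test, Benjamini-Hochberg adjustment), with the plate (naive-like against other cells) or the clone (against day 3) as a block. The plate pairs its sums since they come from the same EB pool. CPM are plain shares of summed reads, and fold changes come from the TMM-scaled fit. Shares of cells have exact binomial (Clopper-Pearson) intervals and were compared by exact two-sided permutation over clones, and quality measures by exact sign permutation over plates. DESeq2 1.42.0, other scaling, filters and limits of the rule, thinning to 50000 reads and leaving out each plate or clone were alternatives; the comparison with day 3 cells that meet the rule and the shares without plate C344 were added after seeing the data. On simulated counts, the test against other cells recovered 60.6% of genes changed 8-fold and 98.8% of those changed 32-fold. The test against day 3 cells recovered 45.7% of genes changed 8-fold and 100% of those changed 32-fold. Named genes were the 12 per direction with the largest fold change among those called, changed the same way in every plate and with a mean of at least 20 CPM in the higher class, predicted genes being passed over, plus leading members of the gene lists. Members and lists were chosen with earlier results of these data known. Coordinates are from GENCODE for GRCm38.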

Additional observations from a re-analysis of the deposited data

Results flagged for a closer look

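Among 76 groups of 5 or 6 sums or shares screened, a single value stood apart from the rest of its group in 20. A gene with reads in a single sum was always flagged, whatever that value. The usual chance rate of about 5% of groups therefore does not apply to this count. The share of naive-like cells at day 6 was one such group, with 75.0% in clone 3A2 above the other 4 plates.

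In the naive-like sums, plate C335 was lowest for Klf4 (0.941 CPM), Tcl1 (0.941 CPM) and Dazl (0 CPM) and highest for Otx2 (146 CPM). Plate C340 was lowest for Tfcp2l1 (42.4 CPM) and highest for Fgf5 (23.1 CPM), Fabp7 (296 CPM), Dclk1 (1.54 CPM), Rmst (0.578 CPM) and Pou3f1 (0.193 CPM). Plate C300 was highest for Dnmt3b (61 CPM), Olfm1 (7.15 CPM), Asb4 (6.30 CPM), Fam149a (0.387 CPM), Hspa12a (0.309 CPM) and Cnr1 (0.193 CPM). Plate C344 was highest for Cdk14 (3.03 CPM) and Gpr137c (0.252 CPM), and C307 lowest for Nr0b1 (2.62 CPM). Many of these are genes with no or few reads in the remaining plates.

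In 2 of 136 pairs of plate groups screened, every plate of each group moved the opposite way. Dnmt3b, as naive-like minus other cells on the log2(CPM + 1) scale, was at -5.45, -1.55 and -3.38 in the 3BKO plates C335, C340 and C388, against 0.68 and 1.86 in the 3AKO plates C300 and C307, a difference of -4.73. Counted by cells with at least 5 reads, C300 lay the other way, with Dnmt3b in 38.3% of the naive-like and 55% of the other cells. On C307 it was in 1 of 8 naive-like and 1 of 64 other cells. The WT plate C344, in neither group, was at -1.205. Lefty1, a Nodal inhibitor gene, was at 6.22, 3.89 and 4.79 in the day 8 plates C307, C340 and C344, against -0.68, -0.65 and -0.69 in the day 6 plates C300, C335 and C388, a difference of 5.64. By cells with at least 5 reads the day 6 plates did not lie that way, with Lefty1 in 26.7% of the naive-like and 20% of the other cells of C300, 16.7% and 7.69% in C335, and 20% and 10.6% in C388. Without C344 the day 8 values of Lefty1 were those of C307 and C340. These differences were not tested.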

How the results depend on the processing

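Against the other cells, 181 genes were higher and 99 lower. The counts were 732 and 1308 with DESeq2, 301 and 231 with no filter on low counts, 277 and 322 with at least 20 CPM per marker, 36 and 6 with at least 10 naive-like cells per plate, and 128 and 68 with no replicate block. Those lower were 274 with at least 3 naive-like cells per plate, 224 after thinning to 50000 reads and 155 with at least 4 markers. Leaving out 1 plate gave 74 to 209 higher and 23 to 108 lower.

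Against all day 3 cells, where edgeR called 0, DESeq2 gave 243 and 408, no filter 78 and 124, and thinning 31 and 29. Between genotypes DESeq2 gave 21 and 56. Leaving out 1 plate gave 0 to 0 in both comparisons.

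Leaving out 1 clone gave -6.40 to 67.2 points for 3AKO minus other clones at day 6, -31.8 to 5.01 for 3BKO minus others at day 6, -19.6 to 11.8 at day 8, and 7.90 to 17.6 for day 8 minus day 6. The day 8 difference of 3BKO was 10.1 points without plate C344, an alternative added after seeing the data, and 25.8 points with plate C344 and the 3B77-labelled day 8 library left out. Leaving out 1 plate gave 4.88 to 7.15 points for the mitochondrial share, where 5 plates cannot give a p under 0.0625, 41728 to 100176 for reads and 247 to 456 for detected genes. The causes were not tested. Between 116 and 134 cells met the rule under its other limits. With the plate as the unit, 6 plates and 1 or 2 clones per genotype limit every comparison.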

Other observations

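A set of later germline genes (Dazl, Ddx4, Stk31, Dmrt1 and Mael), chosen with values known, was also detected together. At least 2 of the 5 reached 5 reads in 32 of 125 naive-like cells (25.6%, 18.2 to 34.2%), in 2 of 475 other late cells (0.421%) and in 24 of 155 day 3 cells that met the rule (15.5%, 10.2 to 22.2%). Without plate C344 they were 27 of 100 naive-like cells and 2 of 432 other late cells. Singly, Dazl, Ddx4, Stk31 and Dmrt1 were in larger shares of the naive-like cells than of these day 3 cells. Mael was not (11.2% against 17.4%), and neither was Sycp3, a gene of the germ cell list outside this set (22.4% against 26.5%).

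Pou5f1, Sox2 and Nanog were detected together in 64 of 125 naive-like cells (51.2%), against 6.53% of the other late cells and 41.9% of the day 3 cells that met the rule. Without C344 the shares were 51% and 7.18%. At least 3 endothelium genes were detected in 1 of 125 naive-like cells (0.800%), against 9.68% of the other late cells, and without C344 in 0 of 100 and 8.33%. Pecam1, a gene of the endothelium list, lay the other way, in 12.8% of the naive-like cells, against 5.05% of the other late cells.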
